A study of Homo sapiens with 12 samples.

Results

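Transcripts of solute carriers were followed in TMD8 cells with and without silencing of IRF4. The members were the protein-coding genes whose symbol begins with SLC and a digit and whose mean level over all 12 libraries was at least 1 CPM (counts of a gene per 1e6 counts of its library). Of 26318 genes in the deposited table, 325 had such a symbol, 288 of these were protein coding, and 201 reached the minimum. Of these 201 members, 196 were classed as carriers by their SLC family, and 5 (SLC2A4RG, SLC4A1AP, SLC7A6OS, SLC9A3R1 and SLC9A3R2) are named after a carrier without being one. The 196 include SLC3A2, the heavy chain of a carrier, and SLC27A3 and SLC27A5, which are CoA ligases. Members were thus chosen by their mean level over both groups together. For 4 members (SLC12A3, SLC24A4, SLC2A9 and SLC9A7) the mean reached 1 CPM in the control group only, so the control libraries carried them into the set and their values are given as a description. The members nearest above the minimum were SLC12A3 with a mean of 1.08 CPM over all libraries, SLC31A2 with 1.11 and SLC25A41 with 1.31, and the genes nearest below it were SLC30A3 with 0.963, SLC12A8 with 0.914 and SLC25A27 with 0.781.

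TMD8 is an established human line of activated B cell-like diffuse large B cell lymphoma, and IRF4 is a transcription factor of activated B cells and plasma cells. The control group held 6 libraries of TMD8 cells with a scramble short hairpin RNA (shRNA), and the other group held 6 libraries of TMD8 cells with an shRNA against IRF4, so cells of both groups carried a hairpin. Pellets were taken at 24 h and poly(A) RNA was sequenced. The labels used here give neither the hairpin sequences nor how they were delivered. They also do not say that the samples were separate cultures, so p-values measure only how far these samples spread, and that spread may be technical. One characteristic of the samples carries a cell line name whose number climbs from TMD8 with the sample, while each title says TMD8. The library names place 3 control and 3 IRF4 shRNA libraries in each of a pair of sets, called library series 1 and library series 2 below, whose meaning is not given.

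Solute carriers are membrane proteins that move sugars, amino acids, ions, metals, vitamins and nucleotides across the plasma membrane and the membranes of organelles, either down a gradient or coupled to another solute. Proliferating B cells and B cell lymphomas are known to depend on glucose carriers of the SLC2 (GLUT) family, on the heterodimer of SLC7A5 and SLC3A2 for large neutral amino acids, and on mitochondrial carriers of the SLC25 family that exchange nucleotides and phosphate with the cytosol.

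Each library held 31.3 to 38.2 M counts (M, 1e6), so that 3 counts, taken as the floor, were 0.0786 to 0.0959 CPM. IRF4, the target, had lowest, median and highest levels of 1427, 1469 and 1571 CPM in the control libraries and 507, 608 and 716 CPM with IRF4 shRNA (log2 fold change -1.28 ± 0.09 SE, edgeR adjusted p = 1.41e-08). The B cell markers MS4A1, CD79A, CD79B, PAX5, CD22, BLK and POU2AF1 were all present, with a summed level of 5019 ± 240.1 CPM in control libraries and 6489 ± 145 CPM with IRF4 shRNA (SD, n = 6). Of these 7, 4 rose and 2 fell. Of the T cell markers CD3E, CD5 and TRAC were analysed here, and CD3E was at 0 in all control libraries; 1 of 2 tested, TRAC, rose at a level below 1 CPM. The epithelial marker KRT18 and the myeloid marker MPO were at 0 in all 12 libraries. The summed level of the 6 stromal, epithelial and endothelial markers was 8.37 ± 0.78 and 13.3 ± 1.31 CPM (3 of 3 tested rose), and that of the 6 myeloid markers, nearly all of it CD68, was 47.3 ± 4.48 and 36.2 ± 5.73 CPM (1 of 2 tested rose and 1 fell). The part of these markers in the results below was not tested. In bulk RNA, fewer cells that express a gene and less of its RNA per cell cannot be told apart.

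Of the 201 members, 45 rose and 70 fell with IRF4 shRNA at an edgeR adjusted p under 0.05. Over all 16437 genes tested 48.2% were called, 24.2% as rises and 23.9% as falls, and over protein-coding genes with a mean of at least 1 CPM 52.3% were called, 27.9% as rises and 24.5% as falls. Without the 4 members that reached 1 CPM in the control group only, 45 rose and 66 fell among 197. The median log2 fold change was -0.05 over the members and -0.01 over all genes tested. Most differences were small, and in 155 members the log2 fold change was below 0.5 in size. Calls of at least 2-fold comprised 8 rises and 11 falls, where 5.65% and 2.74% of all genes tested rose and fell by that much, and 5.03% and 1.79% of the protein-coding genes with at least 1 CPM. Without the same 4 members these were 8 rises and 7 falls among 197, where 3.86% and 1.5% of the protein-coding genes with a mean of at least 1 CPM in each group rose and fell by that much. The 6 libraries of each group did not overlap for 78 members, 30 of them higher and 48 lower with IRF4 shRNA (30 and 45 without those 4), beside 30.8% of all genes tested and 34.9% of the protein-coding genes with at least 1 CPM. Libraries were also scaled by their total alone, in place of TMM (edgeR's trimmed mean of M-values). The split was then 58 rises and 53 falls for the members and 5257 rises and 2968 falls for all genes. Whether falls outnumbered rises among the members thus depended on the scaling. The share of rises among calls was lower in the members than in all genes with both scalings. It was 39.1% against 50.3% with TMM and 52.3% against 63.9% with library size alone. The member shares include the 4 members that reached 1 CPM in the control group only, all of them falls with TMM, and shares without them are not given here.

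The members together took 1.23% of all counts in control libraries and 1.12% with IRF4 shRNA. Their summed level was 12657 ± 503 CPM in control libraries and 10911 ± 72.9 CPM with IRF4 shRNA (SD, n = 6), and the groups did not overlap. 4 abundant members that fell, SLC7A5, SLC25A6, SLC12A7 and SLC25A3, made up most of this difference. Without them the sums were 9317 ± 113 and 9047 ± 79.8 CPM.

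**Figure D1:**
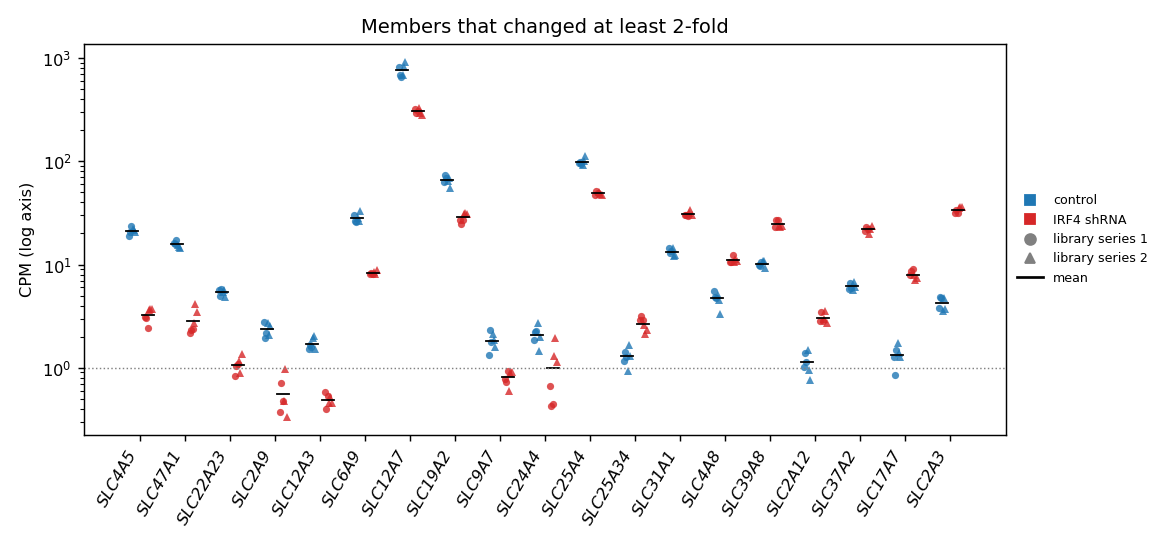
Levels in CPM (log axis) of the 19 members with a called change of at least 2-fold, for 6 control libraries (blue) and 6 IRF4 shRNA libraries (red), circles for library series 1 and triangles for series 2, with black bars at the group means and a dotted line at 1 CPM. SLC2A3 rose from a mean of 4.22 to 33.9 CPM and SLC4A5 fell from 21.2 to 3.26 CPM, and the groups overlap for SLC24A4 only.

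Among the 18 carriers of glucose and other sugars, 4 rose and 9 fell, and the median log2 fold change was -0.16. The falls and the median include SLC2A9, which the control libraries carried into the set. The change of greatest size among all members was that of SLC2A3 (chr12:7919230-7936187 on hg38), which encodes GLUT3, a glucose carrier of high affinity. Its lowest, median and highest levels were 3.53, 4.28 and 4.83 CPM in the control libraries and 31.3, 34.5 and 35.9 CPM with IRF4 shRNA. The groups were far apart, and the level was 8.03-fold higher with IRF4 shRNA (log2 fold change 3.01 ± 0.08 SE, edgeR adjusted p = 7.11e-13). SLC2A1 (chr1:42925353-42958893), which encodes GLUT1, the widely expressed basal glucose carrier, had levels of 30.4, 38.4 and 44.6 CPM and 35.7, 39.8 and 47.6 CPM. These ranges overlapped and SLC2A1 was not called (log2 fold change 0.10 ± 0.09, adjusted p = 0.38). Per kilobase of annotated exon, the level of SLC2A1 was 8.07 CPM in control libraries and 8.67 with IRF4 shRNA, and that of SLC2A3 was 0.686 and 5.51. Counts of SLC2A3 may be shared with near-identical copies: the pseudogene SLC2A3P1 stood at 3.99 ± 1.84 and 6.29 ± 1.88 CPM, and SLC2A14, a close paralogue below the minimum level, held 15 counts in the 6 control libraries and 101 with IRF4 shRNA.

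SLC37A2, which encodes an exchanger of sugar phosphates of the endoplasmic reticulum, had 5.72, 5.96 and 6.81 CPM in control libraries and 19.9, 22 and 23.4 CPM with IRF4 shRNA. It was 3.57-fold higher (log2 fold change 1.83 ± 0.06, adjusted p = 5.44e-12) without overlap of the groups. SLC2A12 (chr6:133987581-134052624), the gene of the glucose carrier GLUT12, had 0.755, 1.08 and 1.49 CPM and 2.72, 2.9 and 3.54 CPM, a 2.71-fold rise at a low level (log2 fold change 1.44 ± 0.15, adjusted p = 1.81e-06). The opposite was measured for SLC2A9 (chr4:9771153-10054936), which encodes GLUT9, a carrier of urate. Its levels were 1.95, 2.36 and 2.78 CPM in control libraries and 0.33, 0.478 and 0.979 CPM with IRF4 shRNA, 4.26-fold lower and without overlap (log2 fold change -2.09 ± 0.22). SLC2A9 reached a mean of 1 CPM in the control group only, so this fall is given as a description.

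The other falls in this class were under 2-fold. SLC2A5, the gene of the fructose carrier GLUT5, had the highest control level per kilobase of exon in this class, 34.6 CPM. Its levels were 223, 232 and 239.8 CPM in control libraries and 147, 163 and 171 CPM with IRF4 shRNA, a fall of 1.44-fold without overlap (adjusted p = 2.60e-08). SLC5A3, which encodes a sodium-coupled myo-inositol carrier, fell from 329 ± 49.1 to 255 ± 9.88 CPM, with overlapping groups (log2 fold change -0.37 ± 0.08, adjusted p = 0.00174). SLC2A13, the gene of a proton-coupled myo-inositol carrier, fell from 41.3 ± 5.06 to 32.9 ± 3.84 CPM, and SLC45A3, of a family of proton-coupled sugar carriers, from 2.69 ± 0.492 to 1.83 ± 0.278 CPM, again with overlap. Summed per group and library series, 2 samples against 2, SLC5A3, SLC2A13 and SLC45A3 were not called (edgeR adjusted p = 0.0628, 0.133 and 0.122).

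**Figure D2:**
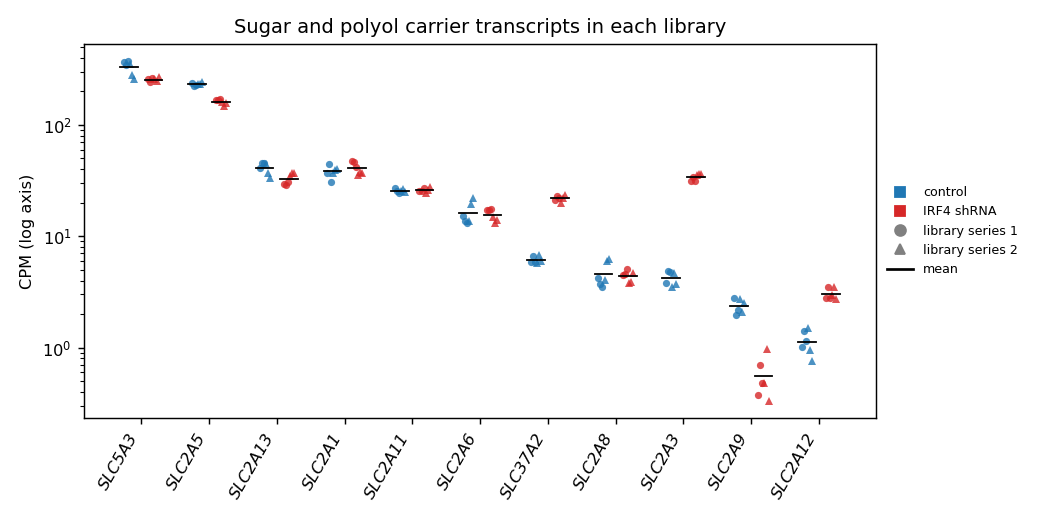
Levels in CPM (log axis) of the SLC2 carriers and of SLC37A2 and SLC5A3, ordered by control mean, for control (blue) and IRF4 shRNA (red) libraries, circles for library series 1 and triangles for series 2, with black bars at group means. SLC2A3, SLC37A2 and SLC2A12 lie higher and SLC2A9 and SLC2A5 lower with IRF4 shRNA without overlap, while SLC2A1 overlaps at means of 38.1 and 40.9 CPM.

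Promoter letters are shown for SLC2A12 and SLC2A9, a glucose and a urate carrier that differed by at least 2-fold, in opposite directions. Both hold GAAA, any 2 bases and GAAA again, the core of an interferon response element, to which factors of the IRF family can bind. SLC2A9 entered the set through the control libraries, so its direction is a description and lends the match no support. Sequences are from RefSeq (GRCh38.p14), on the strand of the gene, and capitals mark the match on either strand. The windows reach from 250 bases before to 50 after a RefSeq transcript start, the printed letters end at the last base before that start, and 3.57% of all 35116 windows in the table hold these letters. The first base of the match lies 17 bases before the start at chr6:134052624 in SLC2A12. In SLC2A9 it lies 117 bases before a start at chr4:10040270, which is inside the gene as the deposited table places it and not at its outer end. A match is a description of letters, and binding was not measured.
SLC2A12 chr6:134052625-134052661 minus strand: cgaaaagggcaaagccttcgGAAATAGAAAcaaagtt
SLC2A9 chr4:10040358-10040407 minus strand: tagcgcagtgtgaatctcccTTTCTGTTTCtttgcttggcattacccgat

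The list of glucose uptake regulators and early glycolytic enzymes, which are not solute carriers, had 20 of its 21 genes in the table and 18 tested, of which 8 rose and 7 fell. TXNIP, an arrestin-like protein known to promote removal of GLUT1 from the cell surface, rose from 2.05 ± 0.247 to 160.3 ± 5.78 CPM (78.1-fold, adjusted p = 2.02e-17). HK1, a hexokinase, rose from 35.8 ± 2.18 to 51.6 ± 4.3 CPM, and HIF1A, a hypoxia-response factor, from 191 ± 7.17 to 267 ± 12.3 CPM. LDHB, a lactate dehydrogenase subunit, fell from 648 ± 12.3 to 511 ± 12 CPM.

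The 7 members of the SLC16 family, carriers of lactate and other monocarboxylates and related solutes, included 1 rise and 1 fall, with a median of 0.02 (2 and 1 with library size alone). SLC16A4, an orphan of the family, had 13.4, 16.9 and 19.3 CPM in control libraries and 30.4, 31.7 and 33.1 CPM with IRF4 shRNA, 1.91-fold higher without overlap (adjusted p = 1.14e-07). SLC16A14, another orphan, fell from 11.6 ± 0.94 to 7.26 ± 1.2 CPM (adjusted p = 5.43e-05). The lactate carrier genes SLC16A1 (MCT1) and SLC16A3 (MCT4) were not called: SLC16A1 had 64.7 ± 2.08 and 60.9 ± 2.08 CPM (adjusted p = 0.0527) and SLC16A3 had 2.85 ± 0.845 and 3.83 ± 0.75 CPM (adjusted p = 0.0738). These calls depended on the setting: SLC16A1 passed the threshold in 4 of 25 alternatives and SLC16A3 in 7. Both passed without control replicate 5, without control replicate 6, without both of these libraries (log2 fold changes -0.11 and 0.68) and with the GC trend removed (-0.08 and 0.41). SLC16A3 also passed with library size alone, without IRF4 shRNA replicate 5 and with the GC trend removed beside a replicate block. The class held 3 rises and 2 falls with the GC trend removed and 2 rises and 3 falls without control replicates 5 and 6.

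Among the 24 amino acid carriers 9 rose and 9 fell, with a median log2 fold change of 0.08. Transcripts of both subunits of the heterodimer of SLC7A5 (LAT1, the light chain that carries large neutral amino acids) and SLC3A2 (4F2hc, its glycoprotein heavy chain) were lower. SLC7A5 (chr16:87830023-87869507), the amino acid carrier with the highest level per kilobase in control libraries (223 CPM), had 899, 1045 and 1287 CPM in control libraries and 684, 742 and 782 CPM with IRF4 shRNA. It fell 1.44-fold without overlap (log2 fold change -0.52 ± 0.07, adjusted p = 3.57e-05). SLC3A2 (chr11:62856102-62888875) had 254, 299 and 379 CPM and 201, 218 and 231 CPM and fell 1.39-fold, also without overlap (log2 fold change -0.48 ± 0.08, adjusted p = 0.000259). In both genes the control libraries spread more widely than the IRF4 shRNA libraries. SLC7A11, the cystine-glutamate exchanger that uses the same heavy chain, fell from 96.8 ± 12.2 to 70.1 ± 9.85 CPM with overlapping groups (adjusted p = 0.00114).

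The fall of greatest size in this class was that of SLC6A9, which encodes GLYT1, a sodium-coupled glycine carrier. Its levels were 25.6, 27.4 and 33.2 CPM in control libraries and 8.02, 8.21 and 8.85 CPM with IRF4 shRNA, 3.4-fold lower without overlap (log2 fold change -1.77 ± 0.07, adjusted p = 1.92e-11), and the log2 fold change was -1.76 in library series 1 and -1.77 in series 2. SLC43A1 (LAT3, a facilitator of branched-chain amino acids) fell 1.52-fold from 66.8 ± 4.43 to 43.9 ± 0.76 CPM. SLC38A9, a lysosomal sensor of arginine for mTORC1, fell 1.47-fold from 26.3 ± 2.09 to 17.8 ± 1.5 CPM. In both the groups did not overlap.

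Rises in this class stayed under 2-fold. SLC6A16, an orphan of the neurotransmitter carrier family, rose 1.85-fold from 5.62 ± 0.503 to 10.4 ± 1.03 CPM, and SLC6A6, the taurine carrier, 1.37-fold from 54.1 ± 3.94 to 74.3 ± 5.57 CPM. SLC7A7, a light chain for cationic amino acids, rose 1.35-fold from 15.8 ± 0.714 to 21.5 ± 2.9 CPM. None of these 3 overlapped between the groups. The glutamine carriers were not called: SLC1A5 (ASCT2) had 295 ± 30.2 and 307 ± 8.19 CPM, SLC38A1 (SNAT1) 519 ± 49 and 499.7 ± 29.2 CPM, and SLC38A2 (SNAT2) 335 ± 29.6 and 360.3 ± 16 CPM. SLC38A2 passed the threshold in 3 of 25 alternatives, among them library size alone (log2 fold change 0.18) and the GC trend removed (0.13). SLC38A1 passed it without control replicates 5 and 6 (-0.14). Summed per group and library series, SLC7A7 and SLC7A11 were not called (edgeR adjusted p = 0.0621 and 0.0755).

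**Figure D3:**
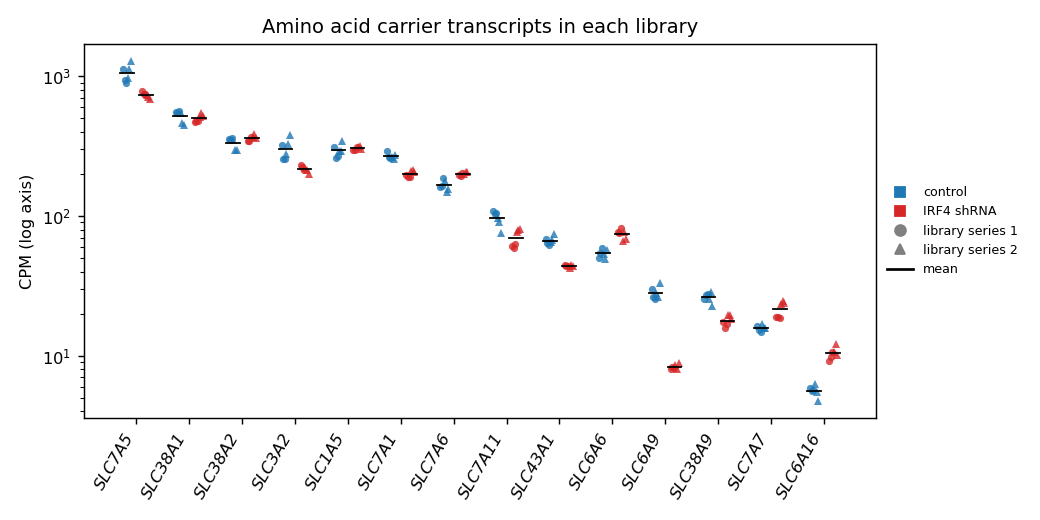
Levels in CPM (log axis) of 14 amino acid carriers ordered by control level, for control (blue) and IRF4 shRNA (red) libraries, circles for library series 1 and triangles for series 2, with black bars at group means. SLC7A5 and SLC3A2 lie lower with IRF4 shRNA and SLC6A9 falls from 28.3 to 8.31 CPM, while SLC1A5, SLC38A1 and SLC38A2 overlap between the groups.

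The promoter windows of both subunits of the LAT1 heterodimer and of SLC7A7 are shown at a motif match, since transcripts of these chains changed without overlap of the groups. Capitals mark CACGTG (an E-box, held by 7.26% of all windows) in SLC7A5, TGANTCA (an AP-1 site, 7.71%) in SLC3A2 and the interferon response element core in SLC7A7. SLC43A1 and SLC6A16, which also changed without overlap, hold CACGTG too and are not shown. SLC38A1, which was not called, holds TGANTCA, so these matches are not particular to genes that changed. The match starts 130 bases before the RefSeq start at chr16:87869507 in SLC7A5 and 10 before that at chr14:22819791 in SLC7A7. In SLC3A2 it starts 37 bases before a RefSeq start at chr11:62881699, which lies inside the gene as the deposited table places it.
SLC7A5 chr16:87869612-87869657 minus strand: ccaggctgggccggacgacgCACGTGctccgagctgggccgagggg
SLC3A2 chr11:62881642-62881688 plus strand: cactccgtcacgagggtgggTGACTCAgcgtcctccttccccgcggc
SLC7A7 chr14:22819792-22819821 minus strand: tcacacatgtgttttcctgtTTTCCATTTC

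The list of amino acid response and mTORC1 sensing genes held 32 genes, all tested, of which 9 rose and 11 fell, with a median log2 fold change of -0.00. TRIB3, a pseudokinase of the ATF4 pathway, fell from 84.7 ± 13.6 to 40.5 ± 4.75 CPM (log2 fold change -1.07 ± 0.10). The stress-response factors ATF3 and CEBPG fell from 58.4 ± 3.15 to 41 ± 1.79 and from 151 ± 9.45 to 116 ± 4.62 CPM. SESN3, a sestrin, rose from 0.79 ± 0.267 to 2.94 ± 0.289 CPM.

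The 40 mitochondrial carriers of the SLC25 family comprised 7 rises and 15 falls at a median of -0.02, and 11 of each with library size alone. SLC25A6, the member of the class with the highest level per kilobase of exon in control libraries (471 CPM), fell. SLC25A6 and SLC25A4 encode ADP/ATP carriers (ANT3 and ANT1), which exchange cytosolic ADP for mitochondrial ATP, and SLC25A3 encodes the phosphate carrier. SLC25A6 had 760.3, 955 and 1381 CPM in control libraries and 448, 543 and 606 CPM with IRF4 shRNA (log2 fold change -0.94 ± 0.14, adjusted p = 5.22e-05). Its groups did not overlap, although the control libraries ranged widely. The fall was -0.59 in library series 1 and -1.29 in series 2 on the log2 scale. SLC25A6 lies in the region shared by the X and Y chromosomes and has pseudogenes, so its counts may be divided among copies.

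SLC25A4 (chr4:185143266-185150382) had 92.5, 97.8 and 112 CPM in control libraries and 46.9, 48.9 and 51.7 CPM with IRF4 shRNA, 2.03-fold lower (adjusted p = 1.56e-10). SLC25A3 (chr12:98593591-98606379) had 462, 485 and 569 CPM and 281, 294 and 301 CPM, 1.72-fold lower (adjusted p = 6.02e-09). In neither gene did the groups overlap. The 3 rises of greatest size were those of SLC25A34, an orphan, from 1.29 ± 0.247 to 2.68 ± 0.399 CPM, SLC25A25, a calcium-regulated ATP-magnesium/phosphate carrier, from 10.2 ± 0.594 to 15.5 ± 1.14 CPM, and SLC25A29, a carrier of basic amino acids, from 6.39 ± 0.32 to 8.83 ± 0.881 CPM. SLC25A25 overlaps the antisense gene SLC25A25-AS1, which had 31.3 ± 3.21 and 31.2 ± 1.77 CPM, and the sources do not say whether the counting used strand. The summed level of the class was 3066 ± 286 CPM in control libraries and 2219 ± 63.3 CPM with IRF4 shRNA.

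Among the 25 carriers of inorganic ions and protons, 6 rose and 6 fell at a median of -0.01 (8 and 5 with library size alone), and 5 of the falls were at least 2-fold. Of these 5, 3 were in members that reached 1 CPM in the control group only, and among the 22 others 2 fell by that much, SLC4A5 and SLC12A7. The class counts and the median include those 3 members. SLC4A5 (chr2:74216242-74343414), which encodes NBCe2, an electrogenic sodium-bicarbonate cotransporter, had the fall of greatest size among all members. Its levels were 19, 21 and 23.4 CPM in control libraries and 2.43, 3.36 and 3.74 CPM with IRF4 shRNA, 6.5-fold lower without overlap (log2 fold change -2.70 ± 0.10, adjusted p = 9.18e-12). SLC4A8, of the same family, encodes a sodium-driven chloride-bicarbonate exchanger and rose. It had 3.34, 4.83 and 5.57 CPM and 10.5, 10.7 and 12.3 CPM, 2.35-fold higher without overlap (adjusted p = 7.55e-08).

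SLC12A7, the gene of the potassium-chloride cotransporter KCC4, was the member of this class with the highest level per kilobase in control libraries (127 CPM). It had 657, 747 and 921 CPM in control libraries and 283, 301 and 329.9 CPM with IRF4 shRNA, 2.5-fold lower without overlap (log2 fold change -1.32 ± 0.08, adjusted p = 2.23e-09). The summed level of the class was 1301 ± 112 CPM in control libraries and 847 ± 21.7 CPM with IRF4 shRNA, and the means of SLC12A7 alone were about as far apart. The sodium-proton exchanger gene SLC9A5 rose from 4.09 ± 0.705 to 5.44 ± 0.347 CPM, a call lost when libraries were summed per group and series (edgeR adjusted p = 0.0573).

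Of the 4 members that reached 1 CPM in the control group only, 3 belong to this class. SLC12A3, the thiazide-sensitive sodium-chloride cotransporter, had 1.51, 1.63 and 2.02 CPM in control libraries and 0.399, 0.487 and 0.579 CPM with IRF4 shRNA. SLC9A7, an organellar sodium-proton exchanger, had 1.33, 1.8 and 2.33 and 0.592, 0.839 and 0.927 CPM. SLC24A4, a potassium-dependent sodium-calcium exchanger, had 1.44, 2.09 and 2.7 and 0.429, 0.905 and 1.96 CPM, and its groups overlapped. This fall was not called when libraries were summed per group and series (edgeR adjusted p = 0.145). SLC24A4 stood at 0.429 to 0.666 CPM in the IRF4 shRNA libraries of series 1 and at 1.14 to 1.96 CPM in those of series 2.

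Of the 9 carriers of iron, copper, magnesium and haem, 2 rose and 4 fell, with a median of -0.26. SLC31A1 (chr9:113221544-113264492), which encodes CTR1, the high-affinity copper importer, had 12.1, 13.3 and 14.5 CPM in control libraries and 29.7, 30.1 and 33.9 CPM with IRF4 shRNA. It rose 2.32-fold without overlap (log2 fold change 1.21 ± 0.06, adjusted p = 1.92e-10). Its neighbour and relative SLC31A2 was at 1.12 ± 0.241 and 1.11 ± 0.186 CPM and was not called. The SLC41 family of magnesium carriers divided: SLC41A1, which exports magnesium and was the most abundant of the class, rose from 441 ± 21 to 493.4 ± 9.74 CPM, while SLC41A2 fell from 13 ± 0.942 to 6.93 ± 0.834 CPM and SLC41A3 from 11.1 ± 0.465 to 6.84 ± 0.511 CPM. The rise of SLC41A1, 1.12-fold, was not called when libraries were summed per group and series (edgeR adjusted p = 0.0919). SLC48A1, a carrier of haem out of endosomes and lysosomes, fell 1.6-fold from 17.6 ± 1.32 to 11 ± 0.513 CPM.

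The 17 zinc carriers comprised 3 rises and 8 falls at a median of -0.11, and 4 and 3 with library size alone. SLC39A8 (chr4:102251041-102431258), which encodes ZIP8, an importer of zinc, manganese and other divalent metals, was the zinc carrier with a change of at least 2-fold. Its levels were 9.35, 10.2 and 10.8 CPM in control libraries and 22.8, 23.8 and 27.2 CPM with IRF4 shRNA, 2.42-fold higher without overlap (log2 fold change 1.27 ± 0.06, adjusted p = 2.82e-10). The other changes were small. The importer genes SLC39A10 and SLC39A1 fell from 79.9 ± 7.95 to 64.6 ± 2.2 and from 81 ± 4.92 to 69.9 ± 0.983 CPM. SLC30A7, which loads zinc into the Golgi, fell from 44 ± 5.33 to 37.4 ± 3.12 CPM. SLC39A7 and SLC39A11 rose from 59.7 ± 2.73 to 66.3 ± 2.16 and from 22.7 ± 1.55 to 25.8 ± 1.57 CPM. Summed per group and series none of these 5 was called (edgeR adjusted p from 0.0653 to 0.214), and SLC30A7 was also lost with library size alone and with 7 single libraries left out. SLC39A9, the most abundant zinc carrier, had 331 ± 21.1 and 352 ± 16.5 CPM and was not called. It passed the threshold in 4 of 25 alternatives, among them library size alone and the GC trend removed (log2 fold changes 0.16 and 0.10).

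The zinc and metal buffering list, whose genes are not solute carriers, had 14 of 16 genes in the table and 11 tested, of which 4 rose and 2 fell. The metallothionein genes MT2A and MT1F, whose proteins bind zinc and copper, rose from 4.62 ± 1.04 to 35.8 ± 9.05 and from 2.39 ± 0.399 to 3.92 ± 0.252 CPM. TFRC, the transferrin receptor, fell from 1264 ± 89.5 to 828.99 ± 32.8 CPM, and ATP7B, a copper-exporting ATPase, from 3.12 ± 0.354 to 1.64 ± 0.298 CPM.

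Of the 14 carriers of organic ions, peptides and other solutes, 4 rose and 5 fell at a median of -0.18. SLC17A7, which encodes VGLUT1, a vesicular glutamate carrier best known from neurons, had 0.845, 1.33 and 1.75 CPM in control libraries and 7.1, 7.87 and 9.13 CPM with IRF4 shRNA. It was 5.99-fold higher without overlap (log2 fold change 2.58 ± 0.13, adjusted p = 4.41e-10). SLC17A9, a vesicular carrier of ATP, rose 1.88-fold from 45.8 ± 8.16 to 86.1 ± 9.99 CPM, and SLC66A2 1.99-fold from 31.9 ± 8.06 to 63.3 ± 16 CPM. Both did so to different extents in the library series, as given below.

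The falls of greatest size in this class were those of SLC47A1 and SLC22A23. SLC47A1, the gene of the proton-coupled organic cation extruder MATE1, had 14.4, 15.6 and 17.3 CPM in control libraries and 2.17, 2.55 and 4.13 CPM with IRF4 shRNA, 5.46-fold lower without overlap (log2 fold change -2.44 ± 0.14, adjusted p = 1.23e-09). SLC22A23, an orphan of the organic ion carrier family, had 4.88, 5.55 and 5.82 and 0.839, 1.07 and 1.35 CPM, 5.08-fold lower without overlap (adjusted p = 2.62e-10). SLC15A4, an endolysosomal carrier of histidine and peptides that is required for signalling by endosomal Toll-like receptors in B cells, fell 1.52-fold. Its levels were 67, 74.8 and 77.1 CPM and 44.5, 47.8 and 54 CPM, and the groups did not overlap.

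Of the 12 carriers of vitamins and nucleosides, 2 rose and 3 fell at a median of -0.08 (3 and 1 with library size alone). SLC19A2, which encodes the thiamine carrier THTR1, had 55.7, 66.6 and 73.9 CPM in control libraries and 24.5, 28.7 and 31.8 CPM with IRF4 shRNA, 2.3-fold lower without overlap (log2 fold change -1.20 ± 0.08, adjusted p = 6.57e-09). SLC23A2, the sodium-coupled ascorbate carrier SVCT2, rose 1.38-fold from 172 ± 9.65 to 237 ± 6.35 CPM without overlap (adjusted p = 1.03e-07). SLC29A1, the equilibrative nucleoside carrier ENT1, rose from 54 ± 4.12 to 61.4 ± 3.0 CPM, and SLC43A3, a carrier of purine bases, fell from 90.4 ± 3.45 to 79.9 ± 4.19 CPM. Neither of the latter pair was called when libraries were summed per group and series (edgeR adjusted p = 0.14 and 0.148), and SLC43A3 was also lost with library size alone. SLC46A3, a lysosomal carrier, fell from 35.3 ± 2.88 to 32.1 ± 0.934 CPM at an adjusted p of 0.0442, a call that 16 of 25 alternative settings ended.

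The 22 members of the SLC35 family, which carry nucleotide sugars and related solutes into the endoplasmic reticulum and Golgi, comprised 5 rises and 7 falls at a median of -0.05 (8 and 5 with library size alone), all under 2-fold. SLC35B2, which supplies the sulfate donor PAPS to the Golgi, rose from 51.6 ± 1.14 to 70.8 ± 5.1 CPM (adjusted p = 1.10e-06) without overlap. SLC35G2 rose from 2.84 ± 0.332 to 4.04 ± 0.454 CPM and SLC35F6 from 22.6 ± 1.57 to 26.1 ± 1.43 CPM. SLC35C2, linked to fucosylation of Notch, fell from 93.6 ± 2.7 to 67.7 ± 3.73 CPM (adjusted p = 1.64e-07) without overlap. SLC35B1, which exchanges ATP for ADP at the endoplasmic reticulum, fell from 21.7 ± 0.998 to 17.9 ± 1.01 CPM, and SLC35B3, a second PAPS carrier, from 26.5 ± 1.34 to 22.4 ± 1.43 CPM. Summed per group and series, SLC35F6, SLC35B1 and SLC35B3 were not called (edgeR adjusted p = 0.11, 0.0631 and 0.116). SLC35E2B, the member of the family with the most counts, was at 205 ± 4.31 and 188 ± 2.3 CPM, and it has a near-identical neighbour, SLC35E2A. This fall of SLC35E2B was lost with library size alone and when libraries were summed per group and series.

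Of the 8 carriers of lipids, choline and bile acids, 1 rose and 2 fell at a median of 0.03. SLC44A2, a choline carrier-like protein, had 102, 109 and 112 CPM in control libraries and 159, 166 and 175 CPM with IRF4 shRNA, 1.54-fold higher without overlap (log2 fold change 0.62 ± 0.04, adjusted p = 2.01e-09). Its relative SLC44A1 fell from 9.42 ± 0.583 to 7.15 ± 0.614 CPM (adjusted p = 0.000246). SLC27A5, a bile acid and very long-chain fatty acid CoA ligase, fell from 24.7 ± 2.3 to 16.9 ± 1.06 CPM (adjusted p = 5.98e-06). In none of these 3 genes did the groups overlap. Among the 5 members that are not carriers, SLC2A4RG, a DNA-binding regulator named for SLC2A4, fell from 11.6 ± 3.72 to 6.68 ± 0.648 CPM with overlapping groups, and SLC7A6OS rose from 44.4 ± 0.757 to 47.1 ± 1.54 CPM at an adjusted p of 0.0486, a call that 14 of 25 alternative settings ended.

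**Figure D4:**
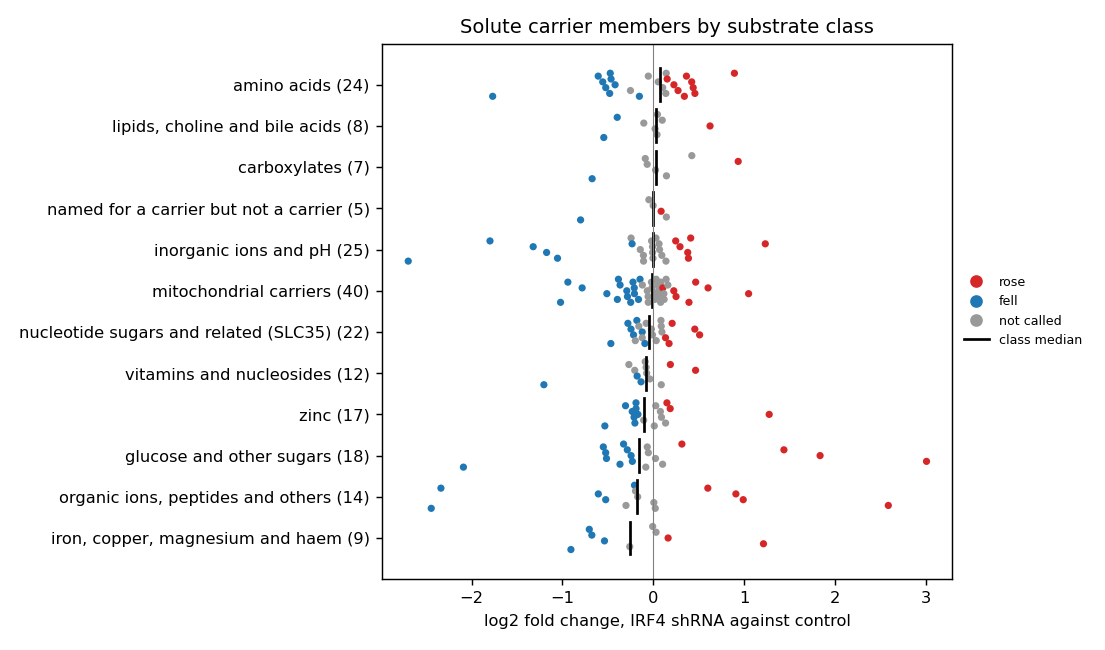
Log2 fold change of each of the 201 members (IRF4 shRNA against control), by substrate class with the number of members in parentheses, coloured red for rises, blue for falls and grey for members not called, with a black bar at the class median. Every class holds members on both sides of 0, and class medians run from -0.26 for iron, copper, magnesium and haem to 0.08 for amino acids.

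Solute carriers named without the SLC prefix were taken from a separate list of 27, of which 26 were in the table and 22 were tested: 6 rose and 5 fell, with a median of 0.06. MFSD2A, a carrier of lysophospholipids, rose from 2.59 ± 0.394 to 6.44 ± 0.797 CPM (adjusted p = 2.12e-07), and SFXN5, a mitochondrial sideroflexin, from 12.4 ± 0.877 to 19.5 ± 0.904 CPM. ANKH, an exporter of ATP and citrate, fell from 12.2 ± 0.835 to 6.96 ± 0.686 CPM, and UCP2, a mitochondrial carrier of the SLC25 type, from 181 ± 13.9 to 139 ± 8.47 CPM.

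Of the 87 protein-coding SLC genes below the minimum level, 21 were tested, of which 8 rose and 0 fell. Since a low gene enters the test more readily when 1 group lifts it, this count is a description. SLC4A3, an anion exchanger chosen after its values were seen, was close to absent in the control libraries, with 12 counts summed over the 6 control libraries and 235 with IRF4 shRNA. SLC30A3, a vesicular zinc carrier just below the minimum, rose from 0.617 ± 0.212 to 1.29 ± 0.29 CPM (adjusted p = 0.00121), a call lost when libraries were summed per group and series (edgeR adjusted p = 0.0611).

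The contrast was also fitted within each library series of 3 against 3. In series 1, 51 members rose and 77 fell, where 50.5% of all genes tested were called (25.7% rises and 24.9% falls) and 58.1% of protein-coding genes with at least 1 CPM. In series 2, 36 rose and 44 fell, where 38.3% of all genes tested were called (20.3% rises and 18% falls) and 42.8% of those protein-coding genes. The sign of the fold change was the same in both for 145 members, 68 were called in both with the same sign, and 0 were called in both with opposite signs. Matching counts over all genes are not given here, so these cannot be read as particular to the members. A test of the difference itself, the interaction of group and library series, called 34 members, 14 with a higher effect in series 2 and 20 with a lower one, beside 14% of all genes tested (5.07% higher and 8.97% lower in series 2) and 18.6% of protein-coding genes with at least 1 CPM. This count moved with the libraries used: it was 2 without control replicates 5 and 6, 19 with the GC trend of each library removed, 41 without control replicate 1, 72 without control replicate 4, and 5 to 18 with any of the other 10 libraries left out. Interaction counts over all genes in these settings are not given here, so the shift cannot be read as particular to the members. Control replicates 5 and 6, both of series 2, stood apart in how their counts deviated with transcript GC content (Spearman's rho across genes of 0.42 and 0.60, against -0.50 to -0.05 in the other control libraries). The IRF4 shRNA libraries divided by series in the same measure, at 0.24 to 0.31 in series 1 and -0.33 to -0.19 in series 2, and the count with this trend removed is the 19 given above.

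Among the 6 members with the smallest interaction p, SLC66A2 rose by 1.51 in series 1 and 0.42 in series 2 on the log2 scale (difference -1.11 ± 0.19 SE, adjusted p = 0.00609). Its control libraries held 24.6 to 31.2 CPM in series 1 and 27.1 to 44.8 in series 2, and its IRF4 shRNA libraries 75.7 to 79.4 and 46.3 to 51. SLC17A9 differed in the same direction, with log2 fold changes of 1.22 and 0.61 (adjusted p = 0.014). For SLC7A11 the log2 fold change was -0.79 in series 1 and -0.15 in series 2 (adjusted p = 0.00549), and for SLC2A13 it was -0.59 and -0.07 (adjusted p = 0.017). SLC47A1 was lower in both series by -2.85 and -2.10 (adjusted p = 0.0169). SLC27A3, a fatty acid CoA ligase that was not called over all libraries, had 0.17 and -0.38 (adjusted p = 0.0171).

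**Figure D5:**
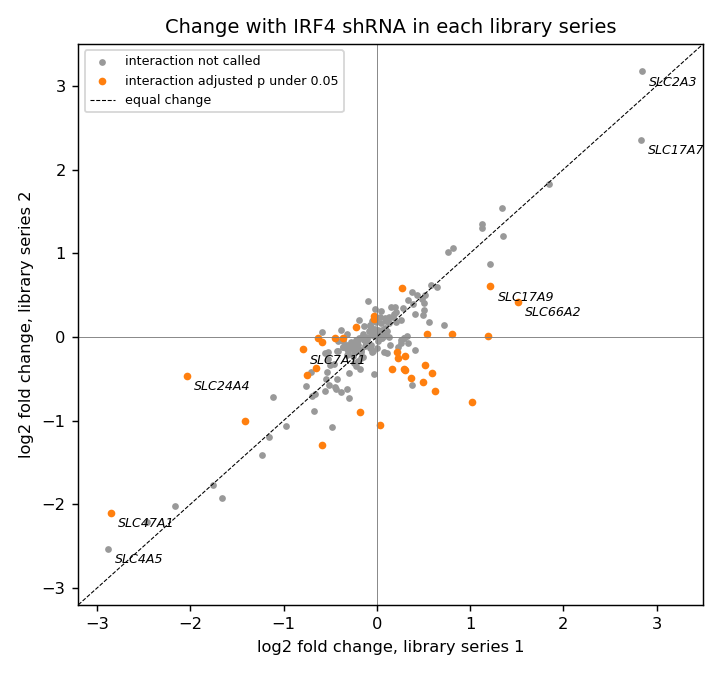
Log2 fold change of each of the 201 members with IRF4 shRNA in library series 1 (horizontal axis) and series 2 (vertical axis), in orange where the interaction of group and series had an adjusted p under 0.05 (34 members), with a dashed line of equal change. SLC2A3 lies near the line at 2.84 and 3.17, and SLC66A2 lies below it at 1.51 and 0.42.

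Promoter windows were found for 163 of the 201 members. For the 51 of these with several windows the first listed was used, and 6 motifs were searched in them on both strands, where matches of different motifs may share bases. The shares of all windows count every window of every gene in the table, whatever its level, so the bases of the shares compared are unlike. CACGTG (E-box) was in 21 of the 163 (12.9%, against 7.26% of all windows), TGCGCNC (the core of a metal response element) in 40 (24.5% against 19.97%) and TGATGNAAN (a C/EBP-ATF element) in 9 (5.52% against 3.61%). TGANTCA was in 8 (4.91% against 7.71%). The interferon response element core was in 3 (1.84% against 3.57%), the 3 printed above, and GGAA, any 2 bases and GAAA (an ETS-IRF element) in 3 (1.84% against 2.82%). Among the 34 windows of members that rose CACGTG was in 5, among the 59 of members that fell in 9 and among the 70 of members not called in 7. For TGCGCNC these counts were 7, 12 and 21. The shares are descriptions of letters, and no factor's binding was measured.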

How the data were processed

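Poly(A) RNA of 12 TMD8 libraries was sequenced with a stranded kit and paired reads of 100 bp, per the labels' protocols. The submitters' processing notes name STAR, HTSeq and the build hg38, without versions. The deposited table held estimated counts for 26318 genes, made by the authors with those tools and not normalized. Of its values 66.6% were whole at a tolerance of 1e-06. No source used here says what produced the fractional values, which may divide reads between near-identical genes. Floors cover counting error only, as reads were not tagged with molecular identifiers.

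The counts as deposited were rounded and tested with edgeR 4.0.16 in R 4.3.3 (quasi-likelihood test, TMM, genes kept by filterByExpr at a minimum count of 10, no covariate), with Benjamini-Hochberg adjustment over 16437 genes and a threshold of 0.05. "Rose" and "fell" refer to calls at this threshold. SE, the standard error, was taken as |log2 fold change| over the root of the F statistic. Levels are CPM from TMM-scaled libraries, given as mean ± SD (n = 6) or as lowest, median and highest library. Levels per kilobase use the annotated exon length of GENCODE 29, found for 197 members. Gene coordinates are those of the deposited table. The fit was tested on simulated data, drawn as independent counts with the same dispersion for every gene. The simulation had no GC trend and no other difference between libraries of a group, so it does not show how the fit performs on these libraries. Libraries of a group differed by more than counting noise (chi-square over its degrees of freedom, 2.73 to 31.9, in genes of at least 20 counts), and each was counted as 1 sample.

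Substrate classes follow the SLC family number, with exceptions by gene. The members, classes and lists were chosen with earlier results of these data known, and lists are described by counts and medians without a set test. The text names SLC2A1, SLC2A3, up to 3 rises and 3 falls of greatest size per class with the same sign in both library series, the member with the highest mean CPM per class, 6 amino acid and 2 lactate carriers, 6 members with the smallest interaction p, 3 genes either side of the level minimum, members at 1 CPM in 1 group only, and up to 4 genes per context list. Alternatives comprised DESeq2 1.42.0 (its size factors and its Wald test), library size alone, no filter, unrounded counts, a robust fit, library series or replicate number as a term, removal of each library's GC trend (lowess span 0.3), summed libraries, other level minimums and each library left out. Leaving libraries out of the interaction, and removing the GC trend from it, were added after seeing the data. Protein sequences were not used here, and some genes that the rule would name are not reported here.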

Additional observations from a re-analysis of the deposited data

Results flagged for a closer look

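In 5 of 194 groups of 6 libraries checked, 1 library lay far from the rest of its group by Dixon's criterion, which chance alone gives in about 1 of 20. SLC15A4 was at 67.0 CPM in control replicate 6, below the 73.6 to 77.1 CPM of the other control libraries, and SLC48A1 was at 20.2 CPM in the same library, above 16.7 to 17.4 CPM. SLC9A5 was at 6.09 CPM in IRF4 shRNA replicate 3, above 5.18 to 5.49 CPM. Outside the members, ATP7B was at 2.21 CPM in IRF4 shRNA replicate 6, above 1.33 to 1.63 CPM, and TXNIP at 172 CPM in IRF4 shRNA replicate 5, above 156 to 159.6 CPM.

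The effect of IRF4 shRNA differed between the library series by the interaction test (edgeR adjusted p) for the 6 members with its smallest p. As series 2 minus series 1 on the log2 scale, the difference was -1.11 for SLC66A2 (adjusted p = 0.00609), -0.63 for SLC17A9 (0.0140), -0.57 for SLC27A3 (0.0171), 0.73 for SLC47A1 (0.0169), 0.63 for SLC7A11 (0.00549) and 0.51 for SLC2A13 (0.0170). What the library series stand for is not given, and their part in these differences was not tested.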

How the results depend on the processing

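Over 97 named genes and 25 alternatives, 2323 of 2425 values kept their direction and their side of the threshold, 62 lost a call, 19 gained one and 21 changed sign. For 68 of the genes nothing changed. All sign changes were in genes not called: SLC38A1 with library size alone (0.0182), SLC31A2 with library size alone (0.0664), no filter (0.00353), library series as covariate (0.000291), the replicate block by title number (0.00451) and by library name (0.00547), the GC trend removed (0.00607, and 0.0173 with the block) and 7 single libraries left out (-0.11 to 0.0759 over all 12), and SLC25A27 without control replicates 5 and 6 (-0.169) and with 5 single libraries left out (-0.132 to 0.149 over all 12).

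Summed per group and library series, 2 samples against 2, 24 members rose and 33 fell, and 2310 and 1932 of all genes. The part of the smaller number of samples in these lower counts was not tested. With single libraries left out, 41 to 45 members rose and 65 to 75 fell (3842 to 4131 and 3515 to 4078 of all genes). The members with an effect that differed between library series numbered 5 to 72 with single libraries left out, 2 without control replicates 5 and 6 and 19 with the GC trend removed, against 34, and the cause was not tested. Interaction counts over all genes in these settings are not given here. Members rising and falling numbered 50 and 78 without control replicates 5 and 6, 51 and 74 with the GC trend removed, and 58 and 53 with library size alone. Over all genes the same settings gave 4422 and 4245, 4700 and 4241, and 5257 and 2968. With a level minimum of 0.5 CPM 50 of 213 members rose and 70 fell, and with one of 5 CPM 39 of 172 rose and 63 fell. Shares of all genes at these level minimums are not given here, so these counts cannot be read as particular to the members.

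Replicate numbers shared by the groups did not pair the libraries: deviations of same-numbered libraries correlated from -0.59 to 0.35, with numbers 1 and 4 above 0 and the other 4 below. With the replicate block by title number 40 members rose and 64 fell, with the block by library name 39 and 64, and with the GC trend removed and the block 51 and 70. Over all genes these counts were 3566 and 3376, 3556 and 3362, and 4402 and 3887. A floor of 3 counts, 0.0786 to 0.0959 CPM, limits what can be said of the SLC genes below the level minimum.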
